A study of Saccharomyces cerevisiae with 6 samples.

Results

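The 9 genes described here carry ammonium into the yeast cell and turn it into glutamate and glutamine: the glutamate dehydrogenases GDH1, GDH2 and GDH3, the glutamine synthetase GLN1, the glutamate synthase GLT1, the ammonium permeases MEP1, MEP2 and MEP3, and the regulator URE2. They were chosen by name, whatever their values, out of 5379 named genes on the array. Of the 9, 7 had a probe with a gene symbol, 1 probe each. GLT1 and URE2 had no probe under their names and were not analysed here. A value on all 3 arrays, the condition for testing, was present for 3 of the 7 (GDH1, GDH2 and MEP3). GLN1, MEP1 and MEP2 had a value on 1 array each, and GDH3 on none. Over all named genes, 39.7% had a value on all 3 arrays and 700 had none.

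The cells were Saccharomyces cerevisiae of the laboratory strain S288C, grown at 25 °C with shaking in YPD, a rich medium of peptone, yeast extract and glucose. Exponentially growing cultures received 1.8 mM formaldehyde for 2 h, and control cultures were grown for 2 h more without it. Each 2-colour array carried poly(A) RNA of a treated culture in Cy5 and of a control culture in Cy3, with no dye swap, so a dye effect on a gene and the treatment cannot be told apart. The 3 arrays held independent biological samples and were read at a high and a low laser setting, which gave 6 scans that count as 3 replicates. The table holds ratios and no levels, so the strain could not be checked against marker genes. Array 1 gave a value for 2498 genes, array 2 for 3329 and array 3 for 4292.

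All values are log2 ratios, read as treated over control. This direction is likely rather than settled: channel 1 holds treated RNA in the labels, which do not state how the ratio was formed, and every higher and lower would swap if it were turned. The median log2 ratio of the 2133 tested genes was 0.18 as deposited and 0.075 when each scan was centred without the ribosomal protein genes, so changes are relative to a zero that moves by about that much.

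Yeast takes up ammonium through the 3 Mep permeases of the plasma membrane. Gdh1, and its isoenzyme Gdh3, join ammonium to 2-oxoglutarate at the cost of NADPH and so make glutamate. Gln1 adds a further ammonium to glutamate to make glutamine, Glt1 moves the amide group of glutamine back to 2-oxoglutarate, and Gdh2 runs the opposite way to Gdh1, releasing ammonium from glutamate with NAD. Ure2 holds the activator Gln3 in the cytoplasm when good nitrogen sources are present, a control known as nitrogen catabolite repression, and genes for the use of poor nitrogen sources then stay low.

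The gene of the ammonium-fixing enzyme fell, and that of the ammonium-releasing enzyme did not pass the test. GDH1 (YOR375C), the main NADPH-dependent glutamate dehydrogenase, had log2 ratios of -2.86, -2.92 and -2.79 on arrays 1, 2 and 3. All 3 values lay within a narrow band, well below 0. Its mean of -2.85 ± 0.07 (SD, n = 3) corresponds to a level 7.23-fold lower in treated cells (limma adjusted p = 1.28e-05, 95% interval of the log2 ratio -3.23 to -2.48). Only 3.75% of the tested genes had a smaller SD over the arrays, where the median gene had 0.29. In rank, 4.03% of the tested genes had a lower mean than GDH1, and within single arrays 4.12%, 3.15% and 5.01% of the genes measured there lay below it. On array 3, where both scans gave a value, they were -2.77 (high power) and -2.80 (low power), and without array 1, 2 or 3 the mean stayed between -2.89 and -2.82.

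GDH2 (YDL215C), the NAD-dependent enzyme that breaks glutamate down, split by array. Its log2 ratios were -0.49 and -0.42 on arrays 1 and 2 and 0.93 on array 3, all from high power scans. Arrays 1 and 2 lay on one side of 0 and array 3 on the other, 1.38 above their mean. The mean was 0.01 ± 0.80 (n = 3, limma adjusted p = 0.99, 95% interval -0.69 to 0.71), and 94.9% of the tested genes had a smaller SD. That interval leaves room for changes of either sign, and the mean was -0.45 without array 3 (limma adjusted p = 0.11), 0.25 without array 1 and 0.22 without array 2. On array 3, 77.0% of the measured genes lay below GDH2, against 33.6% and 31.8% on arrays 1 and 2.

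GDH1 and GDH2 could be set against each other within each array. GDH1 minus GDH2 was -2.37 on array 1, -2.50 on array 2 and -3.71 on array 3, on the log2 scale. GDH1 was thus the lower of the pair on every array, whichever way GDH2 went. The mean difference, GDH1 minus GDH2, was -2.86 ± 0.74 (n = 3), with an exact two-sided sign-flip p of 0.25, the smallest that 3 arrays allow. Of 9 pairs of these genes listed for comparison, this was the only one with values on 3 arrays.

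GDH3 (YAL062W), the second NADPH-dependent isoenzyme, had a probe but no value in any of the 6 scans. GDH1 and GDH3 are close in sequence, so cDNA of one may bind the other's probe. Whether the GDH1 ratio holds a share of GDH3 was not tested.

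**Figure D1:**
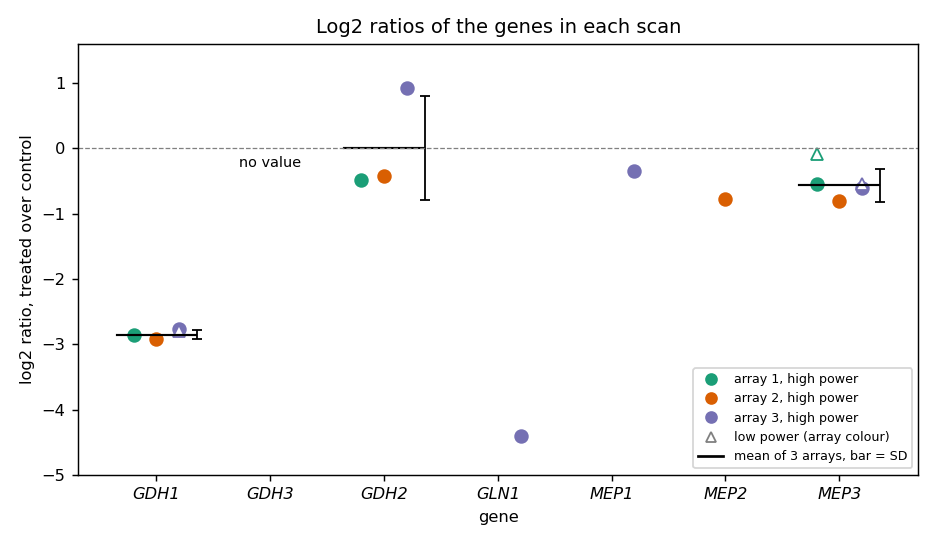
Log2 ratio of treated over control (vertical axis) for the 7 genes with a probe (horizontal axis), with filled circles for high power and open triangles for low power scans, coloured by array; black lines are means of the 3 arrays and bars their SD. The GDH1 points lie together near -2.85, the GDH2 points lie on both sides of 0, the single GLN1 point is at -4.41, and the MEP points lie between -0.81 and -0.08.

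GLN1 (YPR035W), the glutamine synthetase, had a single value, -4.41, in the high power scan of array 3. This is a level 21.3-fold lower in treated cells on that array, with no replicate check. It was the 33rd lowest of the 4292 genes measured on array 3, and 0.746% of them lay below it. It also lay below GDH1, by 1.62 on the log2 scale in the same array. Arrays 1 and 2, and the low power scan of array 3, had no value for GLN1, and what removed them was not tested. Scaling the scans to a common spread gave -4.06.

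The ammonium permeases had negative log2 ratios wherever a value was present, all of them small beside those of GDH1 and GLN1. MEP3 (YPR138C), a permease of low affinity, was the one measured on 3 arrays, at -0.31, -0.81 and -0.57. All 3 arrays lay below 0. The mean was -0.57 ± 0.25 (n = 3), 1.48-fold lower in treated cells (limma adjusted p = 0.0268, 95% interval -0.98 to -0.15), and 23.8% of the tested genes had a lower mean. MEP3 fell by the test on 3 arrays, but the call was lost without array 2 (-0.44, limma adjusted p = 0.24) and without array 3 (-0.56, limma adjusted p = 0.097).

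The 2 scans of MEP3 differed on array 1, at -0.55 for high power and -0.08 for low power, and were -0.60 and -0.55 on array 3. The array 1 gap of 0.46 compares with a median absolute gap of 0.16 over the 740 genes with both scans of that array. High power scans alone put MEP3 at -0.65 ± 0.14 (limma adjusted p = 0.0140).

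MEP1 (YGR121C), close in sequence to MEP3, had 1 value, -0.35 in the high power scan of array 3, where 34.2% of the genes lay lower. MEP2 (YNL142W), the high-affinity permease that also acts as an ammonium sensor in filamentous growth, had 1 value, -0.77 in the high power scan of array 2, where 21.0% lay lower. Set beside MEP3 on the same arrays, MEP1 was 0.23 higher and MEP2 0.04 higher on the log2 scale, single differences with no test. Because MEP1 and MEP3 are alike, their cDNAs may also bind each other's probes.

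By the test, 2 of the 3 tested genes fell (GDH1 and MEP3), none rose and 1 did not pass. Over all 2133 tested genes, 62.5% were called in either direction, 25.3% lower and 37.2% higher, at an adjusted p under 0.05. With 3 genes, a count of 2 called is near that background and is not a result about the group. When a value on 2 arrays sufficed, 2 of 3 were again called, beside 55% of 3307 genes. The order of the 3 means was GDH1, MEP3, GDH2 from lowest, and the intervals of MEP3 and GDH2 overlapped while that of GDH1 lay apart from both.

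**Figure D2:**
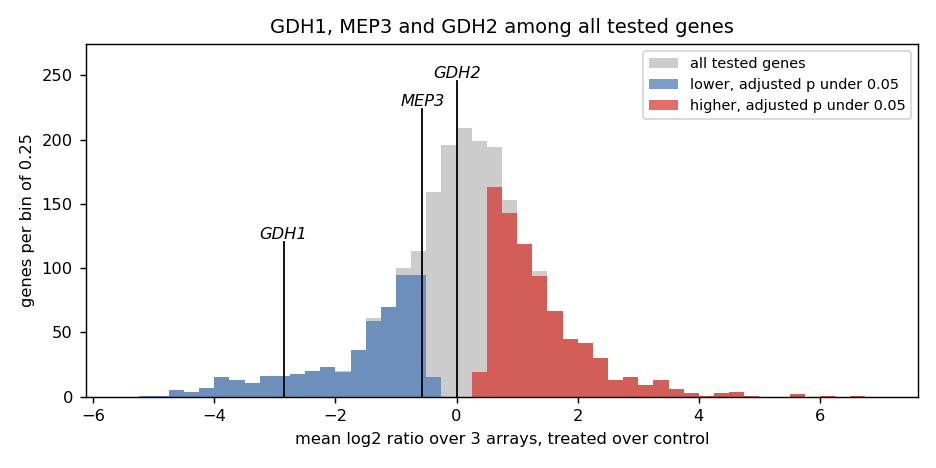
Histogram of the mean log2 ratio over 3 arrays for the 2133 tested genes (bins of 0.25 on the horizontal axis, genes per bin on the vertical axis), with genes called lower in blue and higher in red and vertical lines at the 3 tested genes. GDH1 at -2.85 lies in the lower tail, MEP3 at -0.57 at the inner edge of the genes called lower, and GDH2 at 0.01 among genes not called.

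Likeness was measured as the root mean square difference of the 3 array log2 ratios, over 3 arrays only, and describes these arrays. The 3 tested genes most like GDH1 were EFT2, translation elongation factor 2 (0.13, mean -2.77), the ribosomal protein gene RPS27B (0.13, mean -2.94) and the alcohol dehydrogenase ADH1 (0.14, mean -2.92). Those most like MEP3 were VID22 (0.064), SPC19 (0.073) and TPO3 (0.088), a polyamine exporter of the plasma membrane. Those most like GDH2 were YIP4 (0.20), the glutamate and aspartate permease DIP5 (0.20) and COX5B (0.21). Each of them was also lower than 0 on arrays 1 and 2 and higher on array 3, which a choice by likeness favours. Within 0.3 of the member lay 20 of 2132 genes for GDH1, 82 for MEP3 and 12 for GDH2.

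Around these genes, 10 lists of 114 genes were counted, with UGA1, PUT1 and PUT2 in more than 1 list and each counted once in the total. Of 58 tested, 19 rose, 20 fell and 19 did not pass, a called share of 67.2% beside 62.5% over all tested genes, with a median log2 ratio of 0.11 beside 0.18. Without array 3 the number that rose was 10 and the median -0.14, and without array 1 the median was -0.05, so its sign is not settled. The counts of each list below are to be read beside 37.2% higher and 25.3% lower over all tested genes. Counts with an array left out have their own background over all genes. Without array 1, 960 of 2945 genes were higher and 688 lower. Without array 2, 746 of 2482 were higher and 559 lower, and without array 3, 608 of 2146 were higher and 464 lower. Because a fit on 2 arrays leans on the pooled variance, a call can be lost in it with little or no fall in the mean. No list was tested as a set. The values of all tested list genes stand in the plot by list.

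The carbon partner of the Gdh1 reaction comes from the citrate arm. Of 14 tested genes in the list of 2-oxoglutarate supply, 8 fell, 2 rose and 4 did not pass (median -0.67). Over all tested genes 25.3% fell. The list also holds KGD1, KGD2 and LPD1, of the enzyme complex that uses up 2-oxoglutarate. KGD1 (-0.30) and KGD2 (-0.21), named after their values were seen, were among those not passing and count in the median. YHM2, a mitochondrial carrier of citrate and 2-oxoglutarate, fell by 2.86 ± 0.38 on the log2 scale, and the aconitase ACO1 fell by 2.77 ± 0.20. The isocitrate dehydrogenase subunit IDH2 fell by 1.96 ± 0.01, and the 2-oxodicarboxylate carrier ODC2 fell by 1.45 ± 0.10. The limma adjusted p of these genes lay between 1.86e-05 and 0.000269. The small SD of IDH2 holds for averaged scans, and high power scans alone gave -2.10 ± 0.14. The 2 that rose, PYC1 (0.70 ± 0.32) and IDP1 (0.62 ± 0.14), were named after their values were seen; none of the list passed upward without array 3, and 4 did without array 1.

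Users of glutamine's amide group went both ways: of 8 tested, 3 fell, 2 rose and 3 did not pass (median -0.13). The GMP synthetase GUA1 fell by 3.80 ± 0.52, and the asparagine synthetases ASN1 and ASN2, close in sequence to each other, fell by 2.13 ± 0.23 and by 0.98 ± 0.30 (limma adjusted p between 1.66e-05 and 0.00300). ABZ1, of folate synthesis, rose by 0.89 ± 0.83 (limma adjusted p = 0.0371), but had 1.52, -0.05 and 1.21 on arrays 1, 2 and 3, and lost its call without array 1 (0.58) and without array 3 (0.73). Without array 3 none of the list passed upward, where 608 of all 2146 genes did. Without array 1 the number that fell was 6 of 13, beside 688 of 2945 over all genes. Aminotransferases that use or form glutamate had 2 higher and 2 lower of 8 (median 0.12). UGA1, which forms glutamate from 2-oxoglutarate as it breaks down GABA, rose by 0.98 ± 0.14. HIS5 rose by 0.87 ± 0.35, while SER1 fell by 0.62 ± 0.21 and ALT1 fell by 0.55 ± 0.27. SER1 lost its call without array 2 (-0.63) and array 3 (-0.51), and ALT1 without array 1 (-0.53) and array 2 (-0.43). The glutamyl-tRNA synthetase GUS1, the 1 tested of 3 such genes, fell by 1.09 ± 0.13. In the GABA shunt and proline list 2 of 6 rose and none fell (median 0.33), PRO2 by 0.80 ± 0.24 and PRO3 by 0.46 ± 0.14. PRO3 lost its call without array 1 (0.54), array 2 (0.43) or array 3 (0.42). UGA1, which also belongs to the GABA shunt, was not in this list. It was counted with the aminotransferases above and with the nitrogen repression targets below.

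On the side of regulation, 6 genes of permease control and TORC1, the growth-controlling kinase complex, were tested. Of these, 4 rose, 1 fell and 1 did not pass (median 0.89), where 37.2% of all tested genes rose and their median was 0.18. NPR1, the kinase that keeps the Mep permeases active, rose by 1.54 ± 0.65 (2.90-fold), the TORC1 subunit LST8 by 1.00 ± 0.29, PAR32 (AMU1), which inhibits MEP1 and MEP3, by 0.91 ± 0.30, and NPR2, of a complex that restrains TORC1, by 0.87 ± 0.15 (limma adjusted p between 0.00180 and 0.00424). NPR1 lay at 1.68, 0.83 and 2.10 on arrays 1, 2 and 3, above 0 on each. The 1 that fell, PPH21 (-0.53 ± 0.06), was named after its values were seen and was not among the calls without array 2 or array 3. The median of the list was 0.19 without array 1 and 0.48 without array 2, when 8 genes were tested.

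Of the 4 other regulators of nitrogen repression, none was tested: GAT1, a GATA activator, had 1.74 and 1.56 on arrays 1 and 3, and GLN3 had 0.16 on array 2. Their 13 tested targets were split, 4 higher, 4 lower and 5 not passing (median 0.23). UGA1, also counted with the aminotransferases, was 1 of the 4 higher. ASP1 fell by 2.56 ± 0.54, the amino acid permease AGP1 fell by 2.54 ± 0.09, the peptide transporter PTR2 fell by 1.46 ± 0.34, and the vacuolar carboxypeptidase CPS1 rose by 2.11 ± 0.16 (limma adjusted p between 2.06e-05 and 0.000590). The number of targets that rose was 2 without array 3. ASP1 encodes the constitutive cytosolic asparaginase and was counted here although the asparaginase known to be under nitrogen repression is that of the ASP3 genes; without it, a choice made after the values were seen, 4 of 12 rose and 3 fell. The 4 near-identical ASP3 copies, outside the lists and also named after their values were seen, had means from 1.29 to 1.48, and all 4 were called higher, though as copies they are not separate measurements. ATO2, of ammonium export, rose by 2.69 ± 0.35 (6.47-fold, limma adjusted p = 3.62e-05), with 2.32, 2.74 and 3.02 on arrays 1, 2 and 3, and was the 1 tested of 3 such genes. The other export genes had 1 value each, 1.18 for ADY2 on array 2 and -1.78 for ATO3 on array 3, on opposite sides of 0.

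Among retrograde and other regulators of glutamate synthesis, 3 of 4 tested rose and 1 fell (median 0.59). GCN4, the activator of general amino acid control, fell by 3.75 ± 0.29 (13.5-fold, limma adjusted p = 1.02e-05), with -3.77, -4.03 and -3.45 on arrays 1, 2 and 3. The 3 that rose changed little: RTG1 by 0.70 ± 0.65, and the 14-3-3 genes BMH2 by 0.65 ± 0.20 and BMH1 by 0.52 ± 0.26, which are near copies of each other (limma adjusted p between 0.0136 and 0.0495). RTG1 lost its call without array 1 (0.41) and array 3 (0.64), BMH2 without array 2 (0.54), and BMH1 without array 1 (0.52), array 2 (0.66) or array 3 (0.40), so that 1 gene of the list passed upward in each of these fits.

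**Figure D3:**
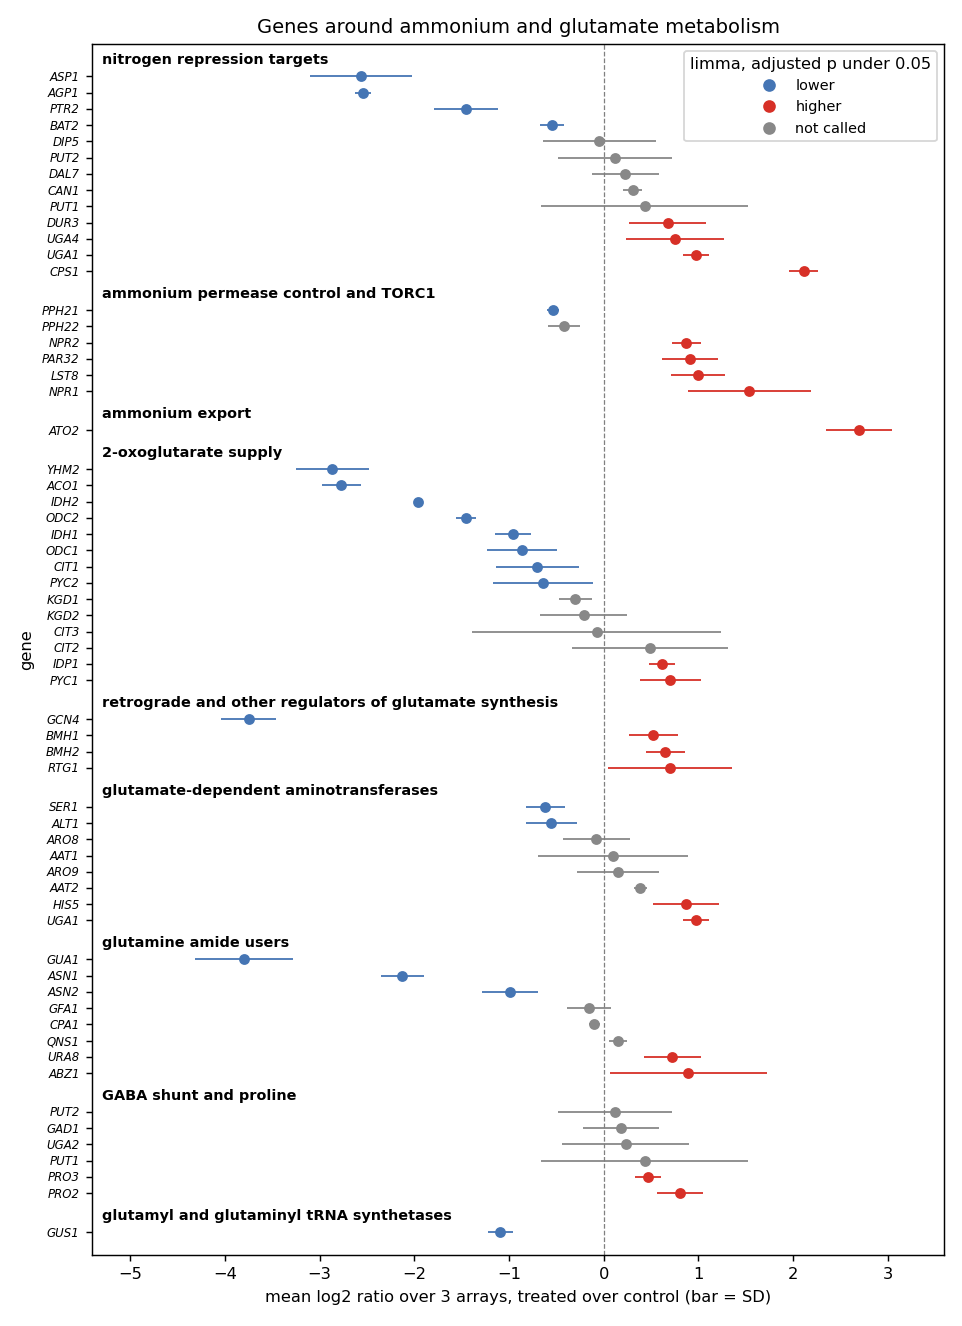
Mean log2 ratio over 3 arrays (horizontal axis, bars show the SD) for the tested genes of each list (vertical axis), blue where called lower, red where called higher and grey where not called. Genes in the list of 2-oxoglutarate supply lie mostly left of 0, while nitrogen repression targets lie on both sides.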

How the data were processed

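Per the labels' descriptions, the authors read each array at high and low laser power and normalised unflagged spots by LOWESS; the deposited values are 1 log2 ratio per probe and scan. The log base was read from the values. Signal over background is unknown here, since neither spot intensities nor the authors' merged values entered, and the number of arrays limits the precision. The image software was not given in the sources. GEO's platform annotation named 1 gene for 5446 of the 6912 probes and none for 1466; all 5379 named genes were found in the RefSeq gene table of assembly R64. No coordinates are printed because the array's build is not given. No sequences are shown.

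Probes of a gene were averaged within a scan, then the 2 scans of an array (or the one present). The 2133 genes measured on every array were compared with 0 by limma (version 3.58.1, under R version 4.3.3; lmFit and eBayes) with Benjamini-Hochberg adjustment over all of them and a threshold of 0.05; the code was first tested on simulated data. Errors are SDs over arrays. The scans of one array deviated together (r between 0.31 and 0.74 over 546 genes with all 6 scans), as 2 readings of the same array. The 9 genes and the lists were chosen with earlier results of these data known. Named are all 9 genes, the 4 largest changes of a list with 3 or more calls or the 2 largest of another, and the 3 genes most like each tested member; others are marked as named after their values were seen. Alternatives covered scan power, an array block, centring, scaling, missing values, robust eBayes, single probes, thresholds and leaving out each array.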

Additional observations from a re-analysis of the deposited data

How the results depend on the processing

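GDH1 stayed lower and called in every alternative that could test it, between -2.95 and -2.75. Low power scans alone, and genes with a value in all 6 scans, left none of the 9 genes to test. The number of them called lower was 2, and was 1 at an adjusted p under 0.01, 1 with a 2-fold minimum, and 1 to 2 with an array left out; the gene lost was MEP3, at -0.57 under both stricter rules and between -0.69 and -0.44 with an array left out. GDH2, never called, was -0.035 with scans centred on their median, -0.078 when centred without ribosomal protein genes, and between -0.45 and 0.25 with an array left out. GLN1 was -4.06 with scaled scans. With 6 scans and the array as a replicate block, GDH1 was -2.85 and MEP3 -0.55, and the lists had 19 higher and 19 lower; PPH21 was lost there and no member changed its call. Of the list genes, 20 were lower and 19 higher. These counts were 8 and 7 of 22 tested with low power scans alone, 7 and 7 of 21 with values in all 6 scans, and 11 and 3 with a 2-fold minimum. At an adjusted p under 0.01, 9 were higher, and 10 to 18 were with an array left out. The median over all list genes turned from 0.11 to -0.044 with low power scans alone, -0.061 when 2 arrays sufficed and -0.078 with all 6 scans, and lay between -0.14 and 0.13 with an array left out. List medians changed sign for nitrogen repression targets (-0.15 to 0.41 with an array left out), aminotransferases (-0.047 to 0.25 likewise, and -0.078 with all 6 scans) and the GABA shunt and proline list (-0.091 to 0.49). For the 30 named list genes, 393 pairs of a gene and an alternative were compared. The call was lost in 46 of these pairs and turned in none. The 30 genes include GAT1 and GLN3, which were not tested on 3 arrays and so had no call to lose or turn. Of all 2133 tested genes, 1333 were called, 794 higher and 539 lower. With a 2-fold minimum 803 were called, 469 higher and 334 lower. At an adjusted p under 0.01, 576 were higher and 404 lower. Low power scans alone gave 403 of 560, 225 of them higher, and all 6 scans gave 408 of 546, 226 of them higher. A stricter rule can only lower a count, and fewer tested genes leave fewer to call. How much of each smaller count this accounts for was not tested, nor were the causes of the other shifts. Fits on 2 arrays lean on the pooled variance.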

Other observations

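Several enzymes that take glutamine's amide into purines, histidine and tryptophan had a value on 2 arrays only and so stood outside the test on 3 arrays. When 2 arrays sufficed, 18 further list genes entered, of which 3 rose, 5 fell and 10 did not pass; the genes below were named after their values were seen. The purine enzyme ADE6 fell by 3.55 on the log2 scale (-3.41 and -3.69 on arrays 2 and 3, limma adjusted p = 1.12e-06). ADE4, which starts purine synthesis, fell by 1.34, and HIS7 fell by 1.59, while TRP2 rose by 1.30 (0.89 and 1.71). In the enzyme that TRP2 and TRP3 encode together, the TRP3 subunit takes the amide. TRP3 had -0.09 and 0.60 on arrays 2 and 3 and was not called (limma adjusted p = 0.48). GAT1 rose by 1.65 in the same fit (limma adjusted p = 0.000351), as did IDP3, a peroxisomal isocitrate dehydrogenase, by 1.08. KOG1, a TORC1 subunit, fell by 0.74 and LPD1 fell by 0.80. These calls rest on 2 arrays each, and 55% of the 3307 genes in that fit were called.

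The arrays differed in the medians of several lists. The lists named next were picked after their values were seen. The 13 tested nitrogen repression targets had medians of -0.18, 0.21 and 0.64 on arrays 1, 2 and 3, the 6 GABA shunt and proline genes 0.00, 0.17 and 0.80, and the 14 genes of 2-oxoglutarate supply -1.17, -0.61 and -0.43, where all tested genes had 0.05, 0.21 and 0.31. PUT1 and PUT2 belong to both of the first lists, so these medians are not separate. Members did not all follow: CAN1 had 0.39, 0.33 and 0.20, PRO2 0.96, 0.52 and 0.93, and AGP1 -2.48, -2.50 and -2.64, while PUT1, of proline breakdown, had 0.16, -0.49 and 1.64, and UGA2, of GABA breakdown, had -0.15, -0.16 and 1.01. These genes were picked after their values were seen, and neither PUT1 nor UGA2 passed the test. GDH2 was also highest on array 3. Of the lists not given above, permease control and TORC1 had medians of 0.68, 0.80 and 0.96 on arrays 1, 2 and 3. Glutamine amide users had -0.22, -0.05 and -0.18, aminotransferases 0.25, 0.12 and 0.21, and retrograde and other regulators 0.58, 0.13 and 0.62. What sets the arrays apart was not tested.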
